A study of Mus musculus with 8 samples.

Results

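Small nucleolar RNAs and the genes that carry them were followed in the mouse organ of Corti, the epithelium in which the cochlea senses sound. The rows taken were those whose symbol starts with Snord, Snora, Scarna or Snhg and a number, except Snhg14, with at least 80 raw counts summed over the 8 libraries. Of 173 rows with such a name, 24 had no count at all and 81 genes were kept, out of 41079 rows in all. They were 41 Snord genes of 106 before the count minimum, 21 Snora genes of 40, 4 Scarna genes of 9 and 15 Snhg genes of 18. The members were thus chosen by their names and selected on their summed counts, so their levels are given as a description. Just inside the minimum lay Snord32a with 84 counts, Snora70 with 85 and Snord43 with 87, and just outside it Snord69 with 75, Snord98 with 74 and Snora2b with 73.

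The study profiled micro-dissected tissue on postnatal day 0, with 4 libraries labelled conditional Prox1 knockout and 4 wildtype libraries. In the group labelled knockout, Cre expressed from Emx2 acts on a floxed Prox1 gene. Emx2 is expressed widely in the developing cochlear epithelium, and the alleles carried by the wildtype mice are not stated in the labels. Nothing in the labels ties the libraries to separate animals, and p-values therefore cover only the spread among these 8 samples, possibly a technical one. In such bulk tissue, fewer cells of a type and less RNA per cell cannot be told apart.

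Small nucleolar RNAs guide the chemical modification of other RNAs. Box C/D RNAs (Snord) direct methylation of ribose by fibrillarin, and box H/ACA RNAs (Snora) direct the conversion of uridine to pseudouridine by dyskerin, both mainly on ribosomal RNA. Scarna RNAs reside in Cajal bodies and guide the same reactions on the RNAs of the spliceosome. In mammals most of them are cut from introns of a host gene, which is either protein coding, often a ribosomal protein gene, or one of the non-coding Snhg genes, whose spliced RNA is in many cases removed by nonsense-mediated decay.

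The sequences below are those on which the results turn: the small RNA whose level followed the 7SL share (Scarna10), the members with the highest fold changes (Scarna9 and Snora78), the near-identical pair in Snhg3, and 2 pairs that each share a host. They are from GENCODE M21 on GRCm38, an older build than the GRCm39 of the authors' processing, and are written 5′ to 3′ on the strand of the gene. Capitals mark TGATGA, the C box, where it begins within the first 20 bases; CTGA, the D box, where it lies within the last 20; or ACA within the last 6. Scarna10 (chr6:125186359-125186683, minus strand) lies in Ncapd2, and Scarna9 (chr9:15326264-15326333, minus strand) in Cep295. Snora78 (chr17:24719676-24719803, minus strand) lies in Snhg9. Snora73b (chr4:132352322-132352526) and Snora73a (chr4:132352775-132352979) lie on the minus strand in Snhg3. Snord78 (chr1:161036984-161037049) and Snord80 (chr1:161037601-161037681) lie on the plus strand in Gas5, and Snord49a (chr11:62603450-62603521) and Snord49b (chr11:62603079-62603150) on the plus strand in 2410006H16Rik.
Scarna10, first 60 bases: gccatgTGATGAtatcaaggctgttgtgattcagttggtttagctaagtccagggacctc
Scarna10, last 60 bases: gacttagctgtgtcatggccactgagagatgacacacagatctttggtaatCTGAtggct
Scarna9: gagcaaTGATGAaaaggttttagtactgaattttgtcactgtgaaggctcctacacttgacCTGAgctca
Snora78: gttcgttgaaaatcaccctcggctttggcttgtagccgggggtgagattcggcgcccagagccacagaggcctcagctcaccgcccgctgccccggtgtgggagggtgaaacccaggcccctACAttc
Snora73b: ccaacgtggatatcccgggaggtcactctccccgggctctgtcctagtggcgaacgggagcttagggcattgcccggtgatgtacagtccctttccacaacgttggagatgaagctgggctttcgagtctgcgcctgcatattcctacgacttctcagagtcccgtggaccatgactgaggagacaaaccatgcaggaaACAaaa
Snora73a: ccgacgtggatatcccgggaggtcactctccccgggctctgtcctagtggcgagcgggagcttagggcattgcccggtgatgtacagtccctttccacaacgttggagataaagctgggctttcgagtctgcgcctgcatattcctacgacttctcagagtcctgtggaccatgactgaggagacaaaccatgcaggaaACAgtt
Snord78: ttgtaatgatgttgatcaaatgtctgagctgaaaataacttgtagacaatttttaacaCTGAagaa
Snord80: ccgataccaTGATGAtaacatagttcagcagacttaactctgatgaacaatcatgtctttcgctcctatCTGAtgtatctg
Snord49a: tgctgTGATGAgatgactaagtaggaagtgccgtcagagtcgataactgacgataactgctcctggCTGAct
Snord49b: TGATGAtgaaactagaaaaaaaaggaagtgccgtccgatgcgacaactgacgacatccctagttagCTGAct

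The boxes were counted in 34 of the 35 Snord members with a length in that release. Of these 34, 22 had both boxes in these windows, against 67 of 97 for all Snord genes of the release. The ACA was present in 20 of 21 Snora members, against 37 of 40 for all Snora genes. These matches describe letters in a window and no more. The pair in Snhg3 was identical at 198 of 205 aligned positions (96.6%), so reads could be split between Snora73a and Snora73b by the counting, and their separate values are uncertain. Identity was 70.7% over 75 aligned columns for Snord49a and Snord49b, and 54.2% over 83 for Snord78 and Snord80. The U3 copies Snord3b2, Snord3b3 and Snord3b4 are members of a multigene family and are likewise uncertain one by one.

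Depth was 29908965, 32548009, 32582542 and 32613549 counts in the libraries labelled knockout and 39886702, 42318233, 35450437 and 32863533 in wildtype. Prox1, a homeobox transcription factor and the targeted gene, went against its label. It had 145, 141, 142 and 130 CPM (counts scaled to a common library total) in the libraries labelled knockout and 106, 117, 102 and 117 CPM in wildtype, with a log2 fold change of 0.33 ± 0.05 (SE, adjusted p = 0.0298 by the edgeR quasi-likelihood fit, Benjamini-Hochberg). The call was lost when any library other than the fourth labelled knockout was left out, at log2 fold changes of 0.30 to 0.34 and adjusted p of 0.0599 to 0.18 in the same edgeR fit. Directions are therefore given for the libraries as labelled. The 8 organ of Corti markers, which include Prox1 itself, were all counted. Their sum was 1268 to 1403 CPM in libraries labelled knockout and 1205 to 1323 CPM in wildtype. The summed level of 4 markers of the stria vascularis, a neighbouring tissue, was 16.1 to 17.2 CPM in libraries labelled knockout and 20.6 to 57.9 CPM in wildtype. That of 4 mesenchyme markers was 2983 to 3324 CPM in libraries labelled knockout and 3494 to 4138 CPM in wildtype, and that of 3 red cell markers 717 to 1289 CPM in libraries labelled knockout and 883 to 1876 CPM in wildtype. The stria and mesenchyme sums did not overlap between the groups, and all markers of the 3 lists had log2 fold changes below 0. In the edgeR fit 0 of them passed. With DESeq2 the stria marker Kcne1 (-2.65, adjusted p = 0.00966) and the mesenchyme marker Col1a1 (-0.45, adjusted p = 0.0413) passed. Kcne1 also passed in edgeR with no filter, with a replicate block and with the non-coding or 7SL share held. With 1 library left out, it passed only without wildtype library 4. The part of these cells in the results was not tested.

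The members took a small share of each library, from 0.0277 to 0.0320% of counts in the libraries labelled knockout and from 0.0239 to 0.0287% in wildtype. Per length, Scarna2, a guide for the spliceosomal RNA U2, was the most abundant, at 162 CPM per kilobase (mean of the 8 libraries). Scarna13, which is built of box H/ACA domains, followed at 40.2 CPM per kilobase, then Scarna10 at 23.4, Snord78 at 23.0 and the host RNA Snhg8 at 19.3. RefSeq gives Scarna2 and Scarna10 much shorter lengths than the GENCODE M21 ones used, so their levels per length, and the place of Scarna10 next to Scarna13 and Snord78, depend on the annotation. The medians by class were 31.8 CPM per kilobase for the 4 Scarna members, 5.63 for 35 Snord members, 3.72 for 21 Snora members and 3.16 for 12 Snhg members. Among small RNA members, the median was 7.23 CPM per kilobase for 29 under 100 bases, 3.39 for 25 of 100 to under 200 bases and 17.5 for 6 of 200 bases and over. Most small RNAs thus rest on few counts: the median sum over the 8 libraries was 150 for Snord and 143 for Snora, against 2022 for Snhg members.

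Taken class by class, the small RNAs lay somewhat higher in the libraries labelled knockout, and only the Snora sum did not overlap between the groups. Snora members summed to 22.3, 18.6, 21.4 and 18.3 CPM in libraries 1 to 4 labelled knockout and to 17.7, 17.6, 14.7 and 13.2 CPM in wildtype libraries 1 to 4. Mean sums were 20.1 ± 1.98 CPM labelled knockout and 15.8 ± 2.21 CPM wildtype (SD, n = 4 each), a ratio of 1.27. Without Snora73b, which holds 13.1% of the Snora counts, the sums were 14.7 to 18.7 CPM in libraries labelled knockout and 11.9 to 16.1 CPM in wildtype, and the groups overlapped. Snord members summed to 33.0, 33.1, 32.6 and 32.4 CPM in the libraries labelled knockout, within 1 CPM of one another, and to 29.4, 33.2, 27.6 and 28.9 CPM in wildtype. Wildtype library 2 was above all 4 libraries labelled knockout in that class. Scarna members summed to 107, 82.5, 91.4 and 90.4 CPM in libraries labelled knockout and to 92.0, 76.5, 71.6 and 78.7 CPM in wildtype, with overlap. Scarna2 alone held 77.8% of the Scarna counts. Snhg members summed to 158, 162, 174 and 136 CPM in libraries labelled knockout and to 147, 160, 125 and 149 CPM in wildtype. These groups overlapped as well. The 66 small RNA members together summed to 134 to 162 CPM in libraries labelled knockout and to 114 to 139 CPM in wildtype, with overlap. The share of all 1105 small nucleolar RNA genes, with the 66 small RNA members but no Snhg gene, was 0.0235 to 0.0279% of counts in libraries labelled knockout. In wildtype it was 0.0183 to 0.0231%, without overlap.

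**Figure D1:**
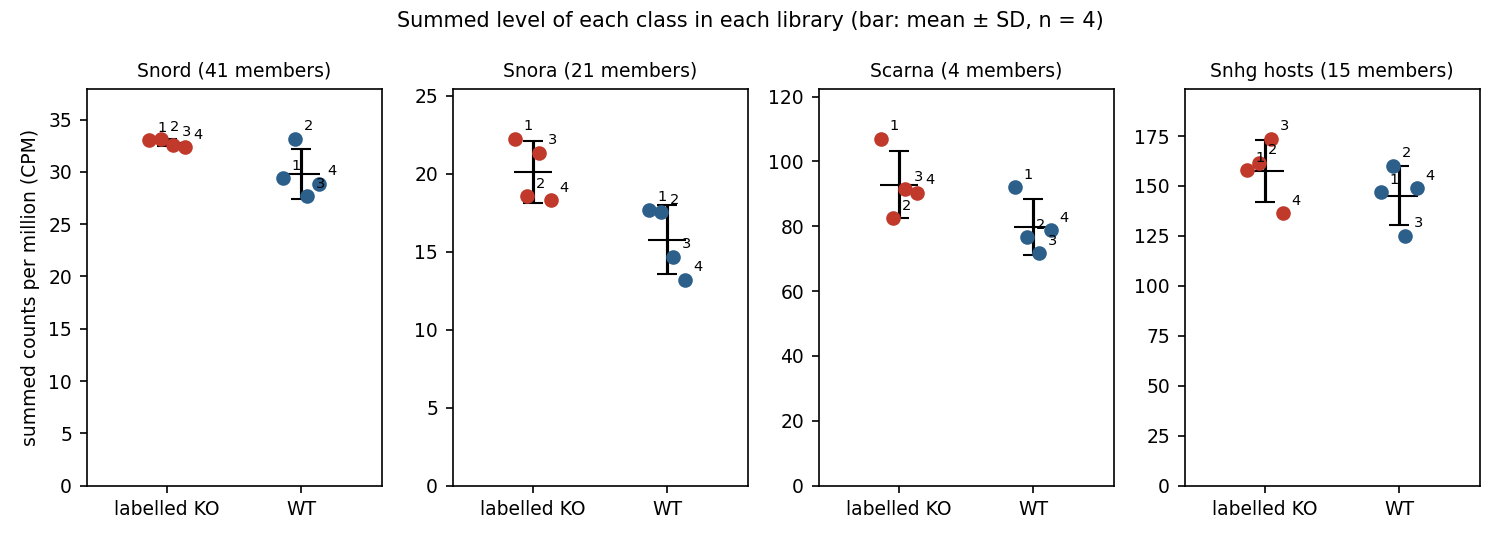
Summed CPM (vertical axes, from 0) of the members of each class in each library, with the libraries labelled knockout (red) left of wildtype (blue), library numbers beside the points and bars for the mean ± SD (n = 4). The Snora sums of the libraries labelled knockout, 18.3 to 22.3 CPM, all lie above those of wildtype, 13.2 to 17.7 CPM, while the other classes overlap.

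No member passed the test between the groups. Of the 81 members, 79 passed the low-count filter (Snord43 and Snora70 did not), and the edgeR fit, with Benjamini-Hochberg adjustment over 20581 genes, called 0 members higher and 0 lower. Over all genes tested it called 7 higher (0.0340%) and 12 lower (0.0583%), or 0.0923% in either direction. DESeq2 and limma-voom also called 0 members, and among the 55 members with an adjusted p in the table deposited by the authors, 0 were under 0.05, the lowest being 0.266 for Scarna9. At an unadjusted p under 0.05, 7 members were higher and 0 lower in edgeR, where 4.76% of all genes were higher and 2.78% lower. In 3 members every library labelled knockout was above every wildtype library, and in 0 members below; over all genes these shares were 1.80% and 2.11%. The sign was positive for 60 of the 79 and negative for 19, with a median log2 fold change of 0.19, whereas 10291 of all genes were above 0 and 10290 below. The members' median was 0.0864 when the fit held the lncRNA share, with 54 of 79 above 0, and 0.12 without wildtype libraries 1 and 3, with 55 of 81 above 0. It was 0.13 with the non-coding share held (53 of 79 above 0) and 0.11 without wildtype library 3 (59 of 81). With RLE scaling it was 0.19 and with upper quartile scaling 0.20 (60 of 79 each). It was 0.17 with the 7SL share held (61 of 79) and 0.18 with DESeq2 (61 of 81). Members share hosts and libraries, so these counts are not independent observations.

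By class, the log2 fold change was above 0 for 18 of 20 Snora members (median 0.25), for 4 of 4 Scarna members (median 0.25), for 27 of 40 Snord members (median 0.16) and for 11 of 15 Snhg members (median 0.11). The Snora median was 0.10 when the fit held the share of counts in non-coding genes and 0.15 when it held the share in long non-coding RNA genes. The Snord median was 0.0778 with the lncRNA share held, 0.0962 without wildtype library 3 and 0.02 without wildtype libraries 1 and 3, the 2 with the lowest share of counts in long non-coding RNA genes. Library 4 labelled knockout, at 2.02% beside 1.98% in wildtype library 1, was kept. Leaving out the low libraries of wildtype alone by itself lowers the fold change of genes that rise with this share. The Snhg median was 0.0624 with the lncRNA share held, and the Scarna median 0.16 with the non-coding share held. Over 4 genes only, the Scarna median was also 0.55 without those wildtype libraries, 0.45 without wildtype library 1 alone and 0.44 without library 2 labelled knockout.

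**Figure D2:**
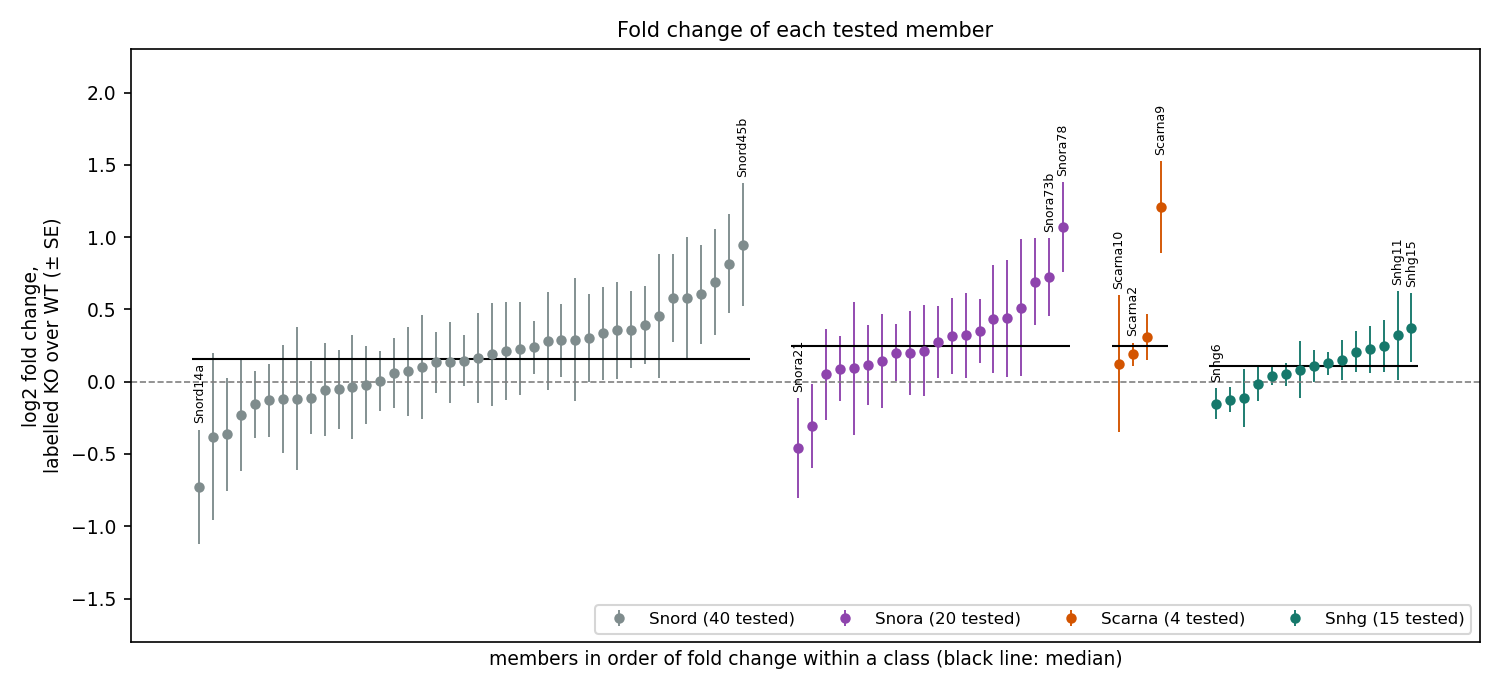
Log2 fold change of the libraries labelled knockout over wildtype with its SE (vertical axis) for the 79 tested members, ordered within each class along the horizontal axis, with a black line at the class median. Most members of each class sit above 0, with SEs that are wide for the sparsely counted small RNAs, and Scarna9, Snora78 and Snord45b have the highest values.

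The member with the highest log2 fold change was Scarna9, whose human counterpart guides modification of the spliceosomal RNA U2. It had 13, 25, 30 and 24 counts in the libraries labelled knockout, or 0.435, 0.768, 0.921 and 0.736 CPM, and 16, 12, 7 and 11 counts in wildtype, or 0.401, 0.284, 0.197 and 0.335 CPM. Each library labelled knockout was above each wildtype library, though library 1 labelled knockout was close to wildtype library 1. The log2 fold change was 1.21 ± 0.32 (SE), and its adjusted p of 0.414 (edgeR quasi-likelihood fit, Benjamini-Hochberg) did not pass. Its host Cep295, a centriole gene, was at 0.04 ± 0.06 on the same log2 scale.

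Snora78 had 0.903, 0.522, 0.675 and 0.705 CPM in libraries labelled knockout and 0.351, 0.213, 0.423 and 0.335 CPM in wildtype, without overlap. Its log2 fold change was 1.07 ± 0.31, with an adjusted p of 0.514 in the same edgeR fit. Its host Snhg9 was nearly uncounted, at 0.0307 to 0.246 CPM in libraries labelled knockout and 0 to 0.0913 CPM in wildtype, and was not tested. Snhg9 and Snora78 lie within Rps2 on the opposite strand, and without a stated strand setting for the counting, reads of the pair cannot be told apart. Rps2 itself had a log2 fold change of -0.20 ± 0.09.

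Snord70, in an intron of the C/D core protein gene Nop58, was the remaining member without overlap. It had 0.635, 0.461, 0.460 and 0.491 CPM in libraries labelled knockout and 0.401, 0.402, 0.395 and 0.335 CPM in wildtype. Its log2 fold change was 0.39 ± 0.27, and Nop58 was at 0.00 ± 0.05. Snord70 was singled out after its values were seen.

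Snord45b, a box C/D RNA in Rabggtb, stood at 0.301, 0.584, 1.01 and 0.429 CPM in libraries labelled knockout and at 0.401, 0.331, 0.113 and 0.335 CPM in wildtype. The groups overlapped, and the log2 fold change was 0.95 ± 0.43. Snord52, in 1110038B12Rik, had 0.368, 0.645, 0.460 and 0.276 CPM in the libraries labelled knockout against 0.226, 0.331, 0.197 and 0.213 CPM in wildtype, again with overlap, and a log2 fold change of 0.82 ± 0.34. At the other end, Snord14a, a copy of U14, which acts in the processing of 18S ribosomal RNA, had 0.301, 0.492, 0.184 and 0.215 CPM in libraries labelled knockout and 0.526, 0.733, 0.395 and 0.274 CPM in wildtype. Its log2 fold change of -0.73 ± 0.39 was the lowest of the members. Snora21 was at -0.46 ± 0.35, Snord73a at -0.38 ± 0.58 and Snord15a at -0.36 ± 0.39, and each of them overlapped between the groups.

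Members also differed in how far libraries of both groups spread. For 8 of the 81 members the coefficient of variation of CPM over the 8 libraries was at or below the one that counting error alone gives, and for 18 it was over 2 times as large. The same shares over all genes were not computed. At a given spread this ratio is larger for highly counted genes, whose counting error is smaller. The median coefficient of variation was 30.9% against a counting value of 23.1% for Snord members, 28.4% against 23.7% for Snora members and 12.8% against 6.29% for Snhg members. Snhg1, the host of Snord22 and other box C/D RNAs, was nearly constant, from 20.8 to 22.6 CPM in libraries labelled knockout and from 20.03 to 21.4 CPM in wildtype. Its coefficient of variation was 3.83%, against 3.70% from counting. Snhg11 was at the other extreme, with 37.7% against 3.20%, followed by Scarna10 with 54.4% against 6.17%.

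**Figure D3:**
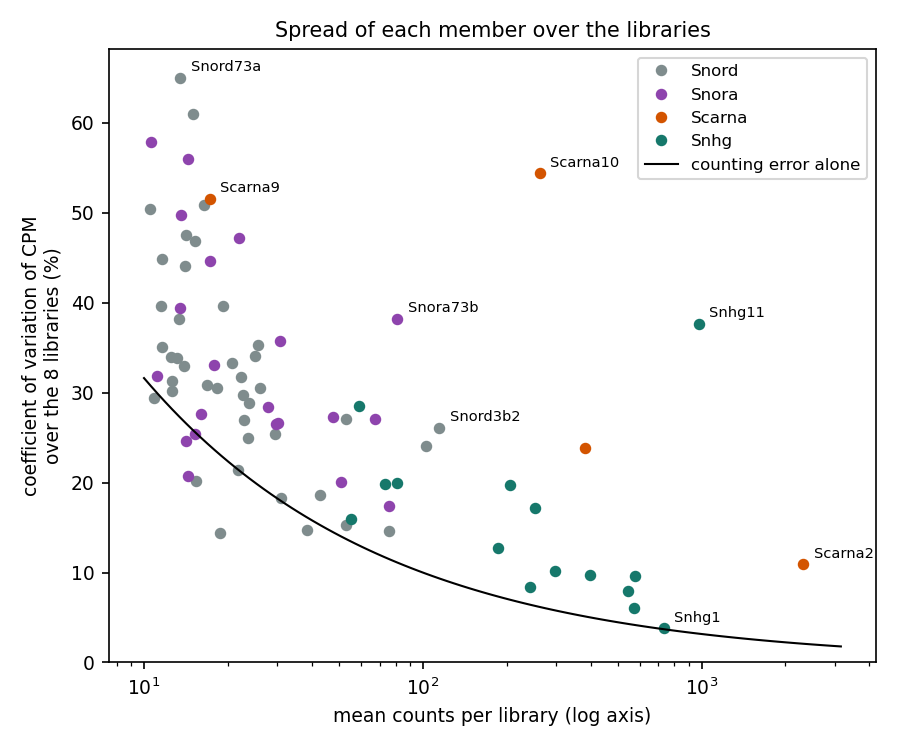
Coefficient of variation of CPM over the 8 libraries (vertical axis, percent) against the mean counts per library (horizontal log axis) for the 81 members, coloured by class, with the curve that counting error alone would give. Many sparsely counted Snord and Snora members lie near the curve, though some, such as Snord73a (65.0%) and Snord45b (61.0%), are over 2 times above it, and Scarna10 (54.4%) and Snhg11 (37.7%) lie far above it and Snhg1 (3.83%) lies on it.

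Scarna10, also known as U85, carries both box C/D and box H/ACA domains and guides modification of the spliceosomal RNA U5. It had 409, 64, 175 and 353 counts in the libraries labelled knockout, or 13.7, 1.97, 5.37 and 10.8 CPM, and 486, 212, 240 and 162 counts in wildtype, or 12.2, 5.01, 6.77 and 4.93 CPM. Its level therefore varied 6.95-fold, with libraries of both groups high and low, and the log2 fold change between groups was 0.12 ± 0.47. With limma-voom it was -0.15. The order of the libraries was close to that of 7SL, the RNA of the signal recognition particle, which took 3.61, 1.151, 2.22 and 3.78% of counts in the libraries labelled knockout and 3.31, 2.06, 2.74 and 1.57% in wildtype. Over the 8 libraries Pearson's r was 0.940 (exact permutation p = 0.000595, adjusted 0.0241 over 162 relations) and Spearman's rho 0.929 (exact permutation p = 0.00223, adjusted 0.0904). Without libraries 2 and 4 labelled knockout, the farthest from the median of the 7SL share, r was 0.938.

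Other small non-coding RNAs had a like order. Rpph1, the RNA of RNase P, was at 1916, 478, 1217 and 1931 CPM in libraries labelled knockout and at 1613, 1081, 1344 and 718 CPM in wildtype. Rn7sk, which binds the elongation factor P-TEFb, was at 5257, 2465, 4430 and 4515 CPM in libraries labelled knockout and at 3697, 2995, 3379 and 2703 CPM in wildtype. For the other Scarna members r with the 7SL share was 0.33 for Scarna2, 0.10 for Scarna13 and -0.09 for Scarna9, and none of them passed after adjustment over the 162 relations. Scarna2 had 80.98, 70.2, 67.9 and 68.3 CPM in libraries labelled knockout and 68.5, 61.7, 55.6 and 63.7 CPM in wildtype, a log2 fold change of 0.19 ± 0.08. Snora73b, a copy of U17, which acts in the cleavage of precursor ribosomal RNA, had 3.61, 1.81, 2.85 and 3.65 CPM in libraries labelled knockout and 2.33, 1.49, 2.03 and 1.28 CPM in wildtype. The groups overlapped, and its log2 fold change was 0.72 ± 0.27. Its r with the 7SL share was 0.80 (exact permutation p = 0.0220, n = 8), which did not pass after adjustment (0.222), with rho of 0.86 (exact permutation p = 0.0107, adjusted 0.145). Snora74a, with 176 counts in all, was closer to the 7SL share and did not pass either. Its r was 0.86 (exact permutation p = 0.00407, n = 8, adjusted 0.0941) and its rho 0.905 (exact permutation p = 0.00456, adjusted 0.106). Without libraries 2 and 4 labelled knockout its r was 0.942.

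Snord8, a box C/D RNA in Chd8, ran opposite to 7SL with r of -0.94 (exact permutation p = 0.000422, n = 8, adjusted 0.0241), rho of -0.95 (exact permutation p = 0.00114, adjusted 0.0904) and r of -0.88 without libraries 2 and 4 labelled knockout. It holds only 105 counts in all, from 6 to 19 per library labelled knockout and from 11 to 17 per wildtype library.

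**Figure D4:**
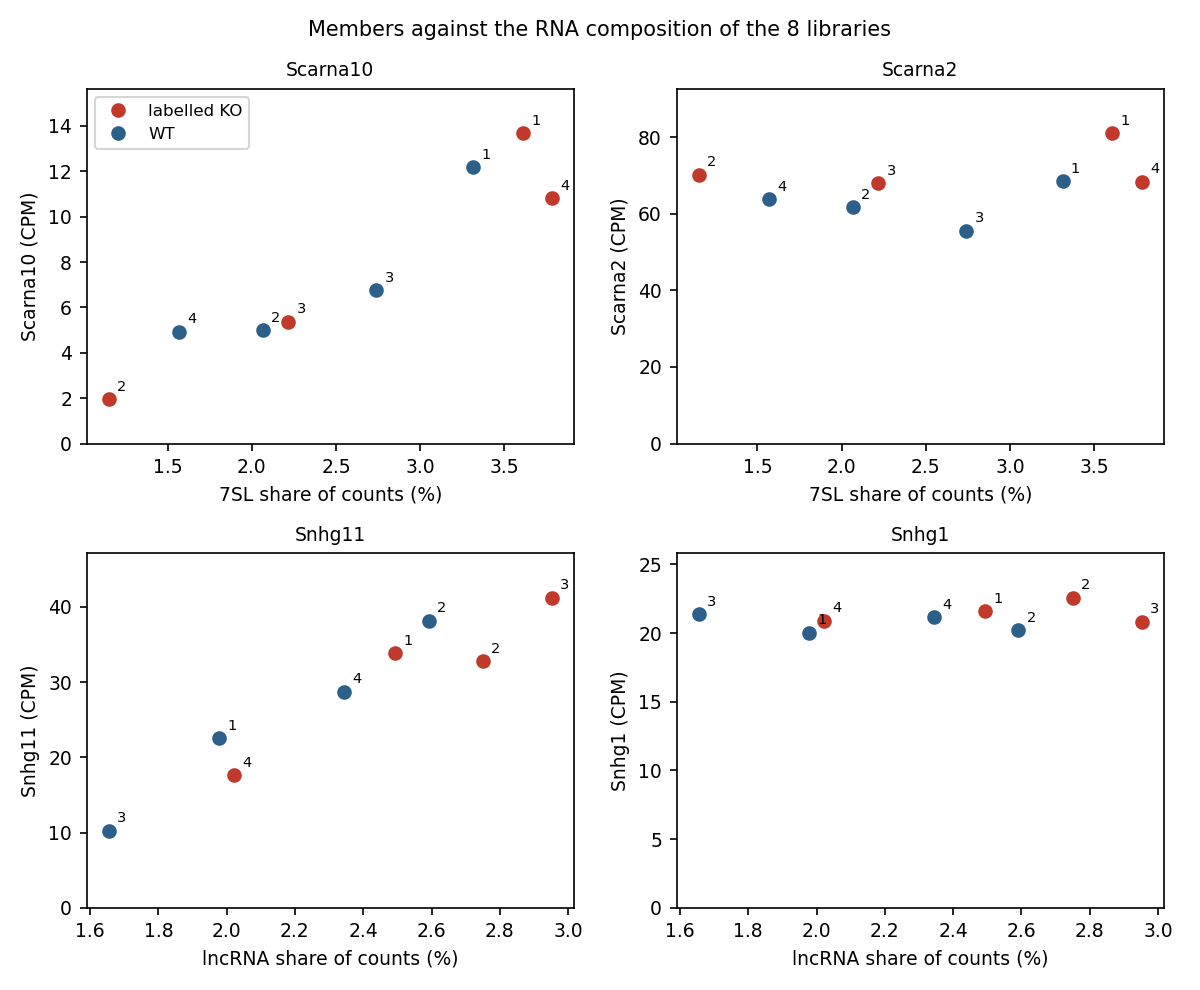
CPM of Scarna10 and Scarna2 against the 7SL share of counts (upper panels) and of Snhg11 and Snhg1 against the lncRNA share of counts (lower panels), all in the 8 libraries, labelled knockout in red and wildtype in blue with library numbers. Scarna10 and Snhg11 lie near a rising line that holds libraries of both groups, while Scarna2 and Snhg1 do not.

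The host RNAs Snhg11, Snhg20 and Snhg17 ran with another measure of composition. The share of counts in long non-coding RNA genes, members left out, was 2.49, 2.75, 2.95 and 2.02% in the libraries labelled knockout and 1.98, 2.59, 1.65 and 2.34% in wildtype. Snhg11 had 33.9, 32.8, 41.2 and 17.7 CPM in libraries labelled knockout and 22.6, 38.2, 10.2 and 28.7 CPM in wildtype. Library 4 labelled knockout and wildtype libraries 1 and 3 were the lowest in both measures. Pearson's r was 0.955 (exact permutation p = 0.000446, adjusted 0.0241) and rho 0.905 (exact permutation p = 0.00456, adjusted 0.106), and r was 0.886 without library 3 labelled knockout and wildtype library 3. The log2 fold change of Snhg11 between groups was 0.32 ± 0.31, and it was -0.21 when the fit held the lncRNA share and -0.08 without wildtype libraries 1 and 3. The summed level of 5 neuron markers was 189 to 270 CPM in libraries labelled knockout and 152 to 313 CPM in wildtype. None of the 5 was at 0. The sum was lowest in wildtype library 3 and highest in wildtype library 2, as was Snhg11 within wildtype. Wildtype libraries 1 and 4 stood in the opposite order, with sums of 242 and 216 CPM. Among libraries labelled knockout both were lowest in library 4, but the sum was highest in library 1 and Snhg11 in library 3. The part of the neuron markers in the result was not tested.

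Snhg20 had 6.85, 7.01, 6.94 and 4.84 CPM in libraries labelled knockout and 4.94, 6.498, 3.95 and 6.36 CPM in wildtype. Its r with the lncRNA share was 0.952 (exact permutation p = 0.000496, n = 8, adjusted 0.0241), its rho 0.929 (exact permutation p = 0.00223, adjusted 0.0904), and r was again 0.952 without library 3 of each group. For Snhg17 the r was 0.868 (exact permutation p = 0.00154, adjusted 0.0498), the rho 0.905 (exact permutation p = 0.00456, adjusted 0.106), and r without those libraries was 0.709. The relation was not confined to host RNAs. The small RNAs Snord12 and Snord80 had a higher r than Snhg17 but did not pass. Their r was 0.892 (exact permutation, adjusted p = 0.0974) and 0.888 (adjusted p = 0.0941), and 0.912 for each without those libraries. The rho of Snord80 was 0.976 (adjusted p = 0.0643). In all, 5 of the 162 relations passed by Pearson's r, 2 with 7SL and 3 with the lncRNA share, and 0 passed by Spearman's rho. The relations were computed for the members alone. No share over all genes stands beside this count, so it cannot be read as a trait of these members. With 4 libraries per group, r was not read within groups.

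Of the 15 Snhg hosts, 0 passed between the groups in edgeR and 0 had an unadjusted p under 0.05. Their log2 fold changes ran from -0.15 ± 0.11 for Snhg6 to 0.37 ± 0.24 for Snhg15. Snhg6 had 6.45, 5.93, 7.49 and 6.62 CPM in libraries labelled knockout and 7.32, 7.68, 7.05 and 7.09 CPM in wildtype. Snhg15 had 2.04, 1.78, 2.61 and 1.35 CPM in libraries labelled knockout and 1.65, 1.84, 1.35 and 1.03 CPM in wildtype. Both overlapped between groups. The other hosts above 0 were Snhg11 (0.32 ± 0.31), Snhg3 (0.25 ± 0.18), Snhg20 (0.23 ± 0.16), Snhg16 (0.21 ± 0.14), Snhg12 (0.15 ± 0.14), Snhg17 (0.13 ± 0.08), Snhg7 (0.11 ± 0.11), Snhg4 (0.08 ± 0.20), Snhg8 (0.05 ± 0.08) and Snhg1 (0.04 ± 0.07). Below 0 were Snhg5 (-0.12 ± 0.09), Snhg10 (-0.12 ± 0.20) and Snhg18 (-0.02 ± 0.12), besides Snhg6.

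Small RNAs could be set beside their hosts for 60 of the 66 small RNA members. For 55 of them the position came from RefSeq and the strand from GENCODE M21 where it had the gene. A host whose strand was not found was accepted. Snord78, Snord80 and Snora9 were placed by GENCODE M21 instead, and for Snord73b and Snord94 RefSeq gave the position but no strand of the small RNA was found. Of the 60, 41 lie in protein-coding genes, 22 of them ribosomal protein genes, and 19 in long non-coding genes, with 48 distinct hosts in all. Both partners were tested in 57 pairs, and the host was the higher of the pair in mean CPM in 54. The signs of the log2 fold changes were the same in 28 pairs and opposite in 29, and in 23 the small RNA was above 0 and the host below. Across the pairs r was 0.22 and rho 0.16, given as a description because pairs share hosts and libraries. Values by kind of host are given next, with no test between kinds. Ribosomal protein hosts were above 0 in 2 of 17 and below in 15, with a median log2 fold change of -0.09, like all 98 tested ribosomal protein genes, of which 81 were below 0 (median -0.08). Without wildtype libraries 1 and 3, 6 of the 17 ribosomal protein hosts were above 0 (median -0.0079), and when the fit held the lncRNA share 9 of 17 were (median 0.0013), while RLE and upper quartile scaling gave 2 and 3 of 17. With the non-coding share held, 1 of these 17 hosts was above 0 (median -0.12), and with the 7SL share held 0 of 17 were (median -0.11). The small RNAs inside them were above 0 in 13 of 20 (median 0.18), in 15 of 22 without wildtype libraries 1 and 3 (median 0.10) in 12 of 20 when the fit held the lncRNA share (median 0.0532) and in 10 of 20 when it held the non-coding share (median -0.00011). Of long non-coding hosts 11 of 13 were above 0 (median 0.11), against 9 of 13 without those libraries (median 0.0812) and 9 of 13 with the lncRNA share held (median 0.0706). With the non-coding share held, 8 of 13 were above 0 (median 0.0436). Of their small RNAs 18 of 19 were above 0 (median 0.29). Under the same 3 alternatives, in that order, 12 of 19 (median 0.20), 13 of 19 (median 0.11) and 16 of 19 (median 0.28) were. Of the other protein-coding hosts 7 of 17 were above 0 (median -0.02), and of their small RNAs 14 of 19 (median 0.24).

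**Figure D5:**
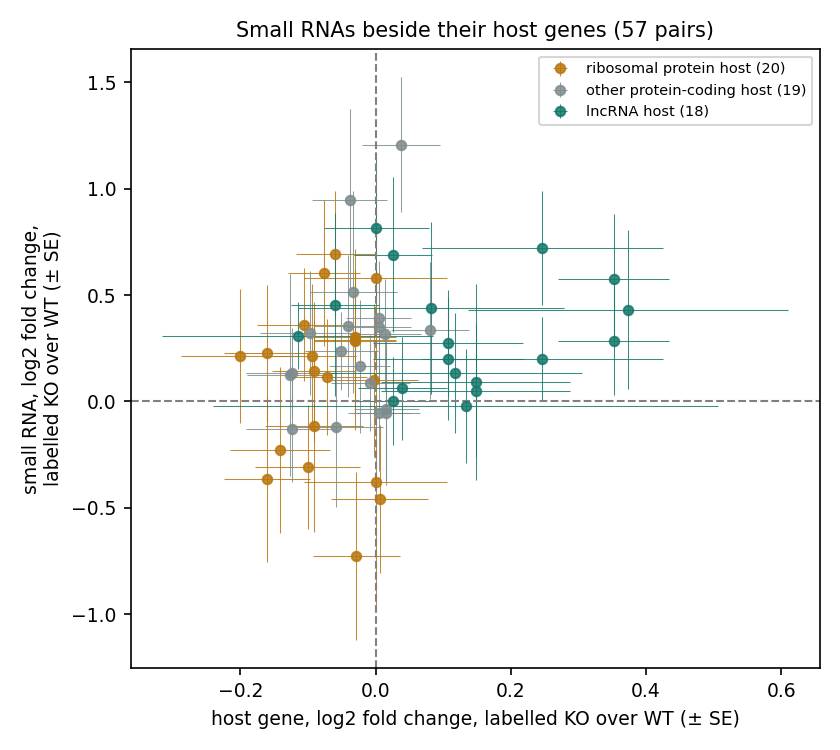
Log2 fold change of each small RNA (vertical axis) against that of its host gene (horizontal axis), labelled knockout over wildtype with SEs, for 57 pairs, coloured by kind of host. Hosts of ribosomal proteins lie mostly left of 0 and long non-coding hosts mostly right of it, while small RNAs of both kinds scatter widely, mostly above 0.

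Gas5, a non-coding host whose RNA carries several box C/D RNAs and accumulates when growth stops, had the lowest p of the hosts. It had 81.8, 83.8, 77.5 and 64.8 CPM in libraries labelled knockout and 50.3, 66.5, 60.7 and 61.4 CPM in wildtype. Mean levels were 77.0 ± 8.54 CPM labelled knockout and 59.7 ± 6.81 CPM wildtype (SD, n = 4 each). Its log2 fold change was 0.35 ± 0.08, with an adjusted p of 0.326 by edgeR and of 0.0446 by DESeq2. Of its small RNAs, Snord78 had 1.30, 1.87, 1.78 and 1.75 CPM in libraries labelled knockout and 1.203, 1.94, 0.733 and 1.58 CPM in wildtype. Snord80 had 0.802, 1.04, 1.10 and 0.644 CPM in libraries labelled knockout and 0.301, 0.851, 0.536 and 0.6999 CPM in wildtype. Both overlapped between groups, at log2 fold changes of 0.29 ± 0.26 and 0.58 ± 0.31.

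Within the other hosts, small RNAs of one gene could differ in value. In Snhg3, at 0.25 ± 0.18, Snora73a was at 0.20 ± 0.20 and Snora73b at 0.72 ± 0.27, with the counting of this pair uncertain as said. In 2410006H16Rik, at 0.03 ± 0.06, Snord49a was at 0.00 ± 0.21 and Snord49b at 0.69 ± 0.37. In Rps3, at -0.16 ± 0.06, Snord15a was at -0.36 ± 0.39 and Snord15b at 0.23 ± 0.32. The 3 members in Rpl23a, at -0.03 ± 0.06, lay close together: Snord42a at 0.29 ± 0.43, Snord42b at 0.28 ± 0.34 and Snord4a at 0.30 ± 0.30. No test of the difference between small RNAs of one host was made. In Snhg10, at -0.12 ± 0.20, the small RNA was counted more often than its host. Scarna13 had 11.9, 9.59, 17.2 and 10.5 CPM in libraries labelled knockout and 10.9, 9.50, 9.11 and 9.74 CPM in wildtype, against 1.54 ± 0.26 and 1.66 ± 0.27 CPM of Snhg10 (SD, n = 4 each). Library 3 labelled knockout was the highest, and the log2 fold change of Scarna13 was 0.31 ± 0.16.

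The remaining small RNAs in Snhg genes did not pass either. They were Snora17 (0.28 ± 0.25) and Snora43 (0.20 ± 0.29) in Snhg7, Snora16a (0.05 ± 0.31) and Snora61 (0.09 ± 0.46) in Snhg12, Snora9 (0.43 ± 0.37) in Snhg15, Snora74a (0.44 ± 0.40) in Snhg4, Snord22 (0.06 ± 0.24) in Snhg1 and Snord64 (0.13 ± 0.28) in the imprinted gene Snhg14. Snora74a is named without its sequence. The 4 U3 members, which act in the first cleavages of precursor ribosomal RNA, summed to 9.96, 7.34, 7.83 and 10.8 CPM in libraries labelled knockout and to 8.55, 9.19, 11.8 and 7.27 CPM in wildtype, with a ratio of the means of 0.976.

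The proteins that bind and make these RNAs were set beside them. Of the 6 box C/D core proteins, including fibrillarin (Fbl), Nop56 and Nop58, 0 passed and the median log2 fold change was -0.01; the gene with the smallest p, Snu13, was at -0.06 ± 0.06. Of the 4 box H/ACA core proteins 0 passed and 4 were below 0, with a median of -0.05. Among them Nhp2 was at -0.12 ± 0.08, with 20.97 ± 1.23 CPM in libraries labelled knockout and 22.6 ± 1.84 CPM in wildtype (SD, n = 4 each). Of 16 assembly and trafficking factors, 0 passed and 12 were below 0, with Naf1, a chaperone of box H/ACA particles, at 0.13 ± 0.07. The 18 genes of release and trimming had 0 passing and a median of 0.01, with the poly(A) polymerase gene Tent4a at -0.08 ± 0.05. The 15 genes of nonsense-mediated decay had 0 passing and a median of 0.02, with Upf3b at 0.19 ± 0.10.

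Other non-coding genes were compared in the same fit. Of 6 further non-coding hosts, 0 passed and 4 were above 0 (median 0.11), among them Gas5. Of 9 other abundant small RNAs, 6 were tested, 0 passed and 6 were above 0 (median 0.18), with Rn7sk at 0.37 ± 0.20, while Vaultrc5, Rny1 and Rny3 were nearly uncounted. Of 10 nuclear long non-coding RNAs, 0 passed and 8 were above 0 (median 0.24), with Miat at 0.64 ± 0.26. Miat had 63.0, 64.7, 69.2 and 32.2 CPM in libraries labelled knockout and 30.5, 53.5, 19.97 and 42.2 CPM in wildtype, with the same 3 lowest libraries as the lncRNA share.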

How the data were processed

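Libraries were made from total RNA after removal of ribosomal RNA, per the labels' protocols. Reads were processed with cutadapt 4.3, FastQC 0.12.1 and HISAT2 2.2.1 on GRCm39, and featureCounts and DESeq2 are also named, per the submitters' processing notes. The sources used here do not give the gene annotation, strand setting, size selection or handling of multi-mapping reads. They could matter for these genes, since reads of an unspliced host can fall in an intronic small RNA.

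The authors deposited raw counts per gene, per the file headers. Beside them they deposited the mean and SD of the raw counts of each group and a mean of normalized counts, as a signal, which were not used. The authors' deposited comparison gives log2 fold changes, a Wald score and p-values. Its direction was read from the signs.

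Members and lists were chosen with earlier results of these data known. Member levels are CPM, counts scaled to a common total over all counts of a library. The test was edgeR 4.0.16 (R 4.3.3), quasi-likelihood, with filterByExpr (minimum count 10), TMM and a threshold of 0.05 on Benjamini-Hochberg adjusted p over all genes that passed the filter. Fold changes are labelled knockout over wildtype. Correlations with library composition used exact permutation tests, two-sided, over 40320 orders, with Benjamini-Hochberg adjustment over 162 relations. Lengths and sequences came from GENCODE M21 (72 of 81 members matched) and gene classes and most hosts from RefSeq of GRCm38.p6 (74 of 81), both on an older build than the authors'. GENCODE M21 gave the hosts of Snord78, Snord80 and Snora9, and the strand of Snord73b and Snord94 was not found. Members with no entry were left out of the values that need one.

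The genes named are the Snhg members, the 8 small RNAs highest per length, the 4 highest and 4 lowest fold changes, the members at the count minimum, small RNAs in Snhg genes and in the hosts with most members, Prox1, and the gene with the smallest p of each list. Others were chosen after their values were seen. Alternatives were other scalings, filters, thresholds, denominators and membership rules, DESeq2 1.42.0, limma-voom (limma 3.58.1), the replicate block, composition covariates and leaving out libraries. The lncRNA and 7SL covariates and the sums without single members were chosen after the data were seen. Libraries of one group differed by more than sampling noise in every pair (lowest chi-square per degree of freedom 9.85). Only the main edgeR fit, and none of the alternatives, was tested on simulated data. Its recovery of small changes is not reported here.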

Additional observations from a re-analysis of the deposited data

Results flagged for a closer look

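In 4 of 108 sets of 4 libraries of one group, 1 library stood apart from the other 3 by Dixon's criterion, which chance gives in about 1 in 20. Snhg20 was at 4.84 CPM in library 4 labelled knockout, against 6.85 to 7.01 CPM in the others labelled knockout. Snord22 was at 0.705 CPM in the same library, against 0.970 to 1.01 CPM. Snord95 was at 0.430 CPM in library 2 labelled knockout, against 0.535 to 0.552 CPM. Snord73a was at 0.727 CPM in wildtype library 1, with the remaining wildtype libraries at 0.307 to 0.365 CPM.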

How the results depend on the processing

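In each of 22 alternatives 0 members were called higher and 0 lower, a count that says nothing about single members. The filter of at least 50 counts kept 12 of the small RNA members, and removing small nucleolar RNA genes left only the 15 Snhg members, so those 0 calls cover fewer members. The number of all genes called higher, 7, was 12 with no filter, 36 with DESeq2, 3 with the replicate block, 2 without wildtype libraries 1 and 3, 3 with the non-coding share as a covariate, 11 with the lncRNA share, 2 at a threshold of 0.01 and 2 to 7 with 1 library left out. The number called lower, 12, was 24 with no filter, 50 with DESeq2, 7 without wildtype libraries 1 and 3, 21 with the 7SL share and 8 to 20 with 1 library left out. The median log2 fold change of Snord members was 0.0245 without wildtype libraries 1 and 3, 0.0778 with the lncRNA share and 0.0962 without wildtype library 3. That of Snora members was 0.10 with the non-coding share and 0.15 with the lncRNA share. That of the Scarna members was 0.55 without those libraries, 0.43 with the lncRNA share and 0.21 to 0.45 with 1 library left out. The log2 ratio of the Scarna sums was 1.23 without the 3 most counted members, which leaves Scarna9 alone. The cause of the other shifts was not tested.

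Of 1183 values of named genes under an alternative, 61 had the other sign. The alternative without wildtype libraries 1 and 3 removes libraries low in the lncRNA share from wildtype alone. Without wildtype libraries 1 and 3 the log2 fold change was -0.0751 for Snhg11, 0.0814 for Snhg18, -0.0759 for Snhg4, -0.0488 for Snord78, -0.0868 for Snord49a, 0.0232 for Snord73a, -0.014 for Snora17, -0.0254 for Snora16a and -0.466 for Snora61. With the lncRNA share it was -0.211 for Snhg11, -0.00576 for Snhg20, 0.000411 for Snhg10, 0.128 for Snhg18, -0.155 for Snhg4, -0.135 for Snord49a, -0.103 for Snora16a, -0.661 for Snora61 and -0.0857 for Snord64. With the non-coding share it was -0.955 for Scarna10, -0.0874 for Snora43, -0.138 for Snora74a and -0.000598 for Rn7sk. Scarna10 was at -0.149 with limma-voom, -0.0542 with the replicate block and -0.332 with the 7SL share. Snord49a was at -0.00224 with no filter, -0.00277 with DESeq2, -0.00349 with limma-voom and -0.000881 with the replicate block. With 1 library left out, values spanned 0 for Snhg18 (-0.137 to 0.0338), Snhg4 (-0.0471 to 0.186), Scarna10 (-0.273 to 0.52), Snord49a (-0.0948 to 0.0828), Snord96a (-0.00263 to 0.233), Snord2 (-0.221 to 0.129), Snord73a (-1.18 to 0.0289), Snora16a (-0.169 to 0.206), Snora61 (-0.169 to 0.402), Snord64 (-0.0799 to 0.276), Snord22 (-0.0896 to 0.155), Snord32a (-0.555 to 0.188) and Stmn2 (-0.268 to 0.0165).

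A pairing of the libraries by replicate number was not shown: the correlations of same-numbered deviations were 0.11, 0.21, -0.28 and -0.14. Libraries 1 and 2 labelled knockout, but not 3 and 4, correlated best with their own number. With so few libraries this check cannot exclude a pairing. With the replicate block 3 genes were called higher and 12 lower, and Prox1 did not pass. Low counts limit most Snord and Snora members, whose own spread is not far above counting error.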
